A study of Mus musculus with 2 samples.

Results

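The genes described here are 10 of the 34745 that the table of the study lists: *Foxm1*, *Mybl2*, *E2f1*, *E2f2*, *E2f3*, *E2f4*, *E2f7*, *E2f8*, *Lin9* and *Lin54*. They code for activators and repressors of cell-cycle genes and for subunits of their complexes, and they were taken from the table by their symbols. The choice was made on the same comparison that is reported, since *Foxm1* was known to stand apart from the other 9, so all differences between the libraries are given as descriptions with no test. RNA-seq was performed on liver of male mice aged 8 to 10 weeks after removal of 70% of the liver (partial hepatectomy, PH), on day 3 as given in the paper. Both groups had PH, and no liver without it was analysed here. In the miR-182-5p KO mice a single allele was knocked out, and the controls were wild-type (WT). Each genotype was represented by 1 library, and how many mice went into a library was not stated in the sources used here.

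FOXM1, a forkhead factor, and B-MYB, the product of *Mybl2*, activate genes needed for G2 and mitosis, and both are brought to their promoters by the MuvB core, which holds LIN9 and LIN54. E2F factors control the genes for DNA replication earlier in the cycle and are held in check by the retinoblastoma (RB) family until cyclin-dependent kinases (CDKs) release them. *Foxm1*, *Mybl2* and several E2F genes are E2F targets themselves, and in regenerating liver FOXM1 is known for its part in the entry of hepatocytes into mitosis.

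Depth was nearly equal, with 13247497 KO and 13163348 WT counts in all, and the hepatocyte markers were abundant, as the liver label has it: *Alb*, *Apoa1*, *Ttr*, *Serpina1a*, *Cps1* and *Hnf4a* summed to 51150 CPM in KO and 50260 CPM in WT (CPM, counts scaled to a library of fixed size), with none of the 6 past 2-fold. The libraries differed in composition. The 13 protein-coding genes of the mitochondrial chromosome held 51.7% of counts in KO against 31.0% in WT, and so the choice of scaling matters for every gene named below. Values are scaled with TMM, which trims the genes with extreme ratios. Relative to TMM, scaling by total counts moves the median log2 fold change over all genes from 0.00 to -0.60. A gene was called higher or lower at a 2-fold difference, a log2 fold change of 1 in size. The hepatocyte values above are with TMM. With total counts the sums were 41520 CPM in KO and 61910 CPM in WT. *Cps1* (-1.23) was then the 1 of the 6 called lower, where 26.6% of all genes were. Intervals are exact 95% intervals, binomial for fold changes and shares and Poisson for levels, and they cover counting error only, not the variation between mice. The targeted gene, *Mir182*, was not analysed here, which leaves the genotypes as labelled. In whole liver, fewer cells of a type and less RNA per cell cannot be told apart.

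*Foxm1*, on chromosome 6 at chr6:128362967-128376146 (plus strand, GRCm38), had 112 counts in KO against 17 in WT. This is 10.4 CPM (8.58 to 12.5) against 1.05 CPM (0.611 to 1.68), a 9.63-fold difference and a log2 fold change of 3.27 (2.57 to 4.14). Scaled by total counts the log2 fold change was 2.68. Of the 10 genes, *Foxm1* was the 1 called higher in the KO library, where 9.46% of the 13561 genes with at least 10 counts were higher. None of the 10 was called lower with TMM, where 9.94% of all genes were. Since the 10 genes were chosen on these values, nothing is read from either count. Over all compared genes, 140 (1.03%), *Foxm1* included, were at or above its fold change. Among 4043 genes with between 50% and 200% of its summed counts the number was 29 (0.717%).

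**Figure D1:**
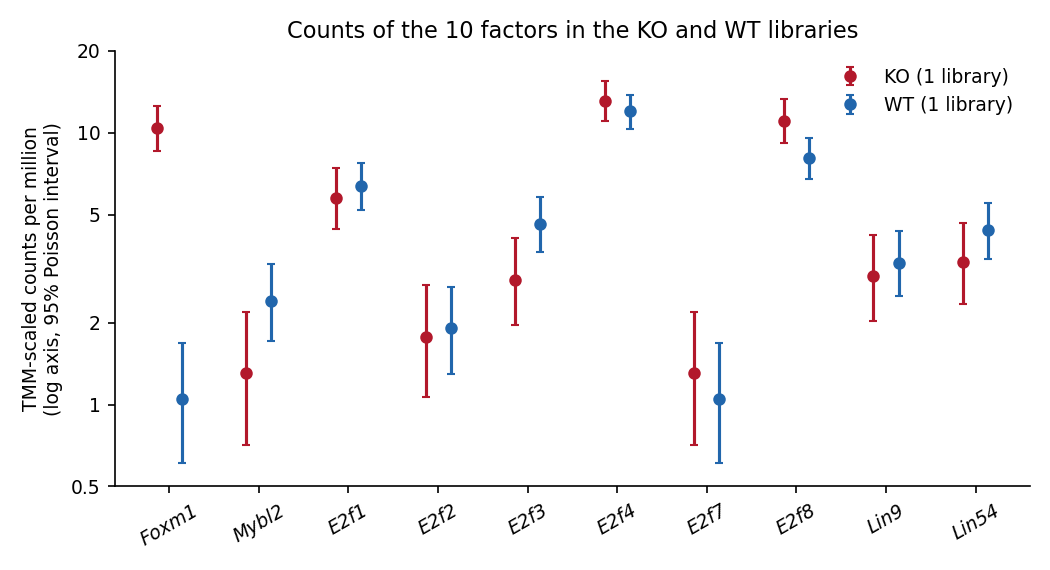
Level of the 10 factors in each library, as TMM-scaled CPM on a log axis, with red points for the KO library, blue points for the WT library and bars for exact 95% Poisson intervals. *Foxm1* is at 10.4 against 1.05, with intervals far apart, while for *Mybl2*, *E2f1*, *E2f2*, *E2f3*, *E2f4*, *E2f7*, *E2f8*, *Lin9* and *Lin54* the intervals of both libraries overlap.

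*Mybl2*, which codes for B-MYB and lies at chr2:163054687-163084688 (plus strand), had 14 counts in KO against 39 in WT. Its level was 1.30 CPM (0.712 to 2.18) in KO and 2.41 CPM (1.71 to 3.29) in WT, a log2 fold change of -0.87 whose interval ran from -1.88 to 0.03. It was the lowest of the 10 fold changes with TMM, and with total counts it was -1.45 and past 2-fold, as was *E2f3*, in a scaling that called 26.6% of all genes lower and 4.60% higher. With the FPKM *E2f3* (-1.13) was just below *Mybl2* (-1.12). *Foxm1* had 8.0 counts per *Mybl2* count in KO and 0.436 in WT. This ratio, which no scaling of the libraries can change, was 18.4 times as large in KO (7.75 to 44.1). Of the 51-base words of the longest *Mybl2* transcript, 23.77% also occur in the pseudogenes *Gm3320* and *AC151978.1*, so its counts are uncertain to that extent.

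The activator E2F genes were close to the median of all genes or below it. *E2f1* (chr2:154559407-154569892, minus strand), the activator best known for driving entry into S phase, had 62 counts in KO and 103 in WT, and its log2 fold change was -0.14 (-0.62 to 0.33). *E2f2* (chr4:136172394-136196057, plus strand) was counted 19 times in KO and 31 times in WT, and its log2 fold change was -0.11 (-1.02 to 0.76). *E2f3* (chr13:29906575-29985668, minus strand) was lower, with 31 counts in KO and 75 in WT and a log2 fold change of -0.68 (-1.34 to -0.06). For *E2f3* alone among the 10 genes the interval lay wholly below 0 with TMM, and with total counts its log2 fold change was -1.27, past 2-fold.

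*E2f4* (chr8:105297663-105305369, plus strand), which with the RB relatives p107 and p130 represses cell-cycle genes in resting cells, had 141 counts in KO and 194 in WT. Its log2 fold change was 0.13 (-0.19 to 0.45). The atypical E2F genes *E2f7* and *E2f8* code for repressors that act without a DP partner and are known in liver for their part in polyploidy. *E2f7* (chr10:110745439-110787384, plus strand) was near the limit of what this depth can measure, with 14 KO and 17 WT counts and a log2 fold change of 0.30 (-0.82 to 1.42). *E2f8* (chr7:48866429-48881596, minus strand) had 119 counts in KO and 131 in WT. Its log2 fold change of 0.45 (0.08 to 0.82) was the second highest of the 10 with TMM, but it was -0.15 with total counts, so its direction depends on the scaling. Exons of *E2f8* also share 610 bases, 11.21% of their length, with *Gm2788* on the opposite strand, which had 535 KO and 351 WT counts, and since counting by strand was not stated, reads of the pair cannot be told apart there.

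The MuvB subunits LIN9 and LIN54, of which LIN54 binds DNA at the cell-cycle homology region (CHR), differed little. *Lin9* (chr1:180641150-180690694, plus strand) was counted 32 times in KO and 54 times in WT, and its log2 fold change was -0.16 (-0.84 to 0.49). *Lin54* (chr5:100441918-100500639, minus strand) was counted 36 and 71 times, and its log2 fold change was -0.38 (-1.01 to 0.21). Exon sequence that other genes share is small for *Foxm1*. It shares 144 bases (2.5% of its exon bases) with *Tex52*, which had 0 KO and 1 WT counts, and 97 bases (1.69%) with *Gm44596*, which had none, and *E2f7* shares 86 bases with *1700020G17Rik*, also without counts.

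**Figure D2:**
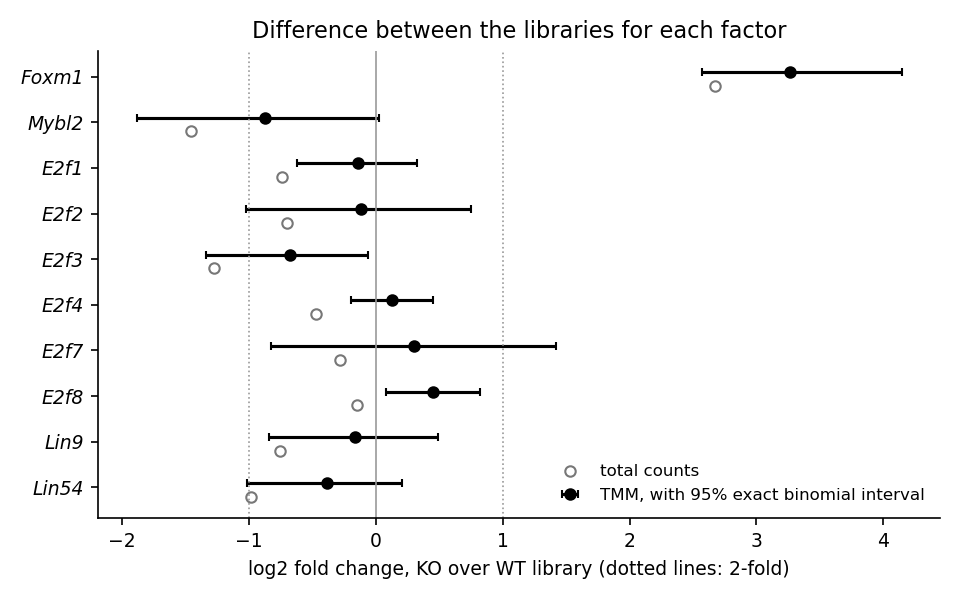
Log2 fold change of each factor, KO over WT library, with TMM scaling (black points, bars for exact 95% binomial intervals) and with total counts (open points), beside dotted lines at 2-fold. *Foxm1* is at 3.27 and 2.68 and the other 9 lie between -0.87 and 0.45 with TMM and between -1.45 and -0.15 with total counts.

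Over the 9 factors other than *Foxm1* the median log2 fold change was -0.14 with TMM and -0.74 with total counts, and *Foxm1* was 3.41 above that median. With TMM 6 of the 10 were below 0 and 4 above, and with total counts 9 were below 0, *Foxm1* being the exception. The median of all genes was 0.00 with TMM and -0.60 with total counts, so most genes were below 0 in the second scaling. The 9 genes had 468 counts together in KO and 715 in WT, which is 43.5 and 44.1 CPM with TMM and 35.3 and 54.3 CPM with total counts. *Foxm1* counts per count of these 9 were 0.239 in KO and 0.0238 in WT, 10.1 times as many (5.91 to 18.1). Against single factors this ratio of ratios ran from 7.25 for *E2f8* (4.02 to 13.6) to 18.4 for *Mybl2*. Of all counts on the 10 genes, 580 in KO and 732 in WT, *Foxm1* took 19.3% (16.2% to 22.8%) in KO and 2.32% (1.36% to 3.69%) in WT.

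Levels between genes can be compared only per length, and for this the FPKM of the authors were used. *E2f4* was highest in both libraries, at 5.34 FPKM in KO and 7.40 FPKM in WT, and *E2f7* was lowest in both, at 0.0823 and 0.101 FPKM. *Foxm1* was ninth of the 10 in WT, at 0.142 FPKM (0.0825 to 0.227). There its interval overlapped that of *E2f7* and lay below that of *Lin54*, the next gene up, at 0.310 FPKM (0.242 to 0.391). In KO it was in place 4, at 0.927 FPKM (0.764 to 1.12). Its interval there overlapped that of *E2f1*, at 0.998 FPKM (0.765 to 1.28), and lay below *E2f8*, at 1.44 FPKM (1.19 to 1.72), and above *E2f3*, at 0.487 FPKM (0.331 to 0.691). In WT the order from the second place on was *E2f1* (1.67 FPKM), *E2f8* (1.59 FPKM), *E2f3* (1.19 FPKM), *Mybl2* (0.531 FPKM), *E2f2* (0.482 FPKM), *Lin9* (0.413 FPKM) and *Lin54*. Neighbours among these 7 overlapped in their intervals except *E2f3* and *Mybl2* (0.933 to 1.49 against 0.378 to 0.726 FPKM). In KO the lower places went to *E2f2* (0.293 FPKM), *Lin9* (0.243 FPKM), *Mybl2* (0.190 FPKM) and *Lin54* (0.156 FPKM), each overlapping the next. The gene length implied by the FPKM was longer than the annotated exons for most of the genes, 9118 against 5754 bases for *Foxm1* and 17380 against 5820 bases for *Lin54*. With the annotated exon length *Foxm1* kept places 4 and 9, while *Lin54* moved up to place 5 in both libraries.

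The difference of *Foxm1* was not shared by the gene next to it on chromosome 6. *Rhno1*, a DNA damage response gene that starts 56 bases away on the opposite strand, had 145 counts in KO and 221 in WT, a log2 fold change of -0.02. *Nrip2*, 23150 bases downstream, had 0 and 3 counts, too few for a fold.

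The promoters of the group were read for the words through which these factors are known to act. The words searched on both strands, in 300 bases from 250 before to 50 after each RefSeq start, were the 8-base E2F words TTTCCCGC, TTTGGCGC, TTTCGCGC and TTTGCCGC, the 7-base E2F word GGCGGGA, the CHR word TTTGAA and the CCAAT box. The 7-base word was added after the *Mybl2* promoter had been seen, and it overlaps the complement of TTTCCCGC. RefSeq windows were matched for 7 of the 10 genes, 10 windows in all, and not for *Foxm1*, *E2f4* and *Lin9*. An 8-base E2F word was in 3 of the 10 windows, against 2.26% of 32851 windows of all genes, the 7-base word in 4 (11.3% of all), the CHR word in 5 (17.9%) and CCAAT in 6 (37.4%). A match is a string of letters and no evidence of binding. The stretches below run from 120 bases before the start to the base before it (RefSeq, GRCm38.p6), with the E2F and CHR words in capitals. They are shown because *Mybl2*, *E2f3* and *E2f8* span the range of the 9 factors and because these words lie close to their starts.
Mybl2 (chr2:163054515-163054634, plus strand): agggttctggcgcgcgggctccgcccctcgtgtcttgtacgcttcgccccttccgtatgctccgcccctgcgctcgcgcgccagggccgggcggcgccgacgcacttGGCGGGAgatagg
E2f3 (chr13:29986064-29986183, minus strand): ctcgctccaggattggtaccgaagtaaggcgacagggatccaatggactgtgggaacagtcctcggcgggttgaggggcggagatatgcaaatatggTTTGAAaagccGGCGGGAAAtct
E2f8 (chr7:48881597-48881716, minus strand): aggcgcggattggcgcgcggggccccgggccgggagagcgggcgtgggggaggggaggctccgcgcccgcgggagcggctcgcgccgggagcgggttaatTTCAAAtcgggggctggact
In *Mybl2* the capitals are the 7-base E2F word 13 bases before the start. In *E2f3* the capitals are a CHR word 23 bases before the start and, nearer to it, an 8-base E2F word on the reverse strand, 11 bases before the start, merged with the 7-base word that overlaps it. In *E2f8* the capitals are a CHR word on the reverse strand, 20 bases before the start. The log2 fold changes of these 3 genes were -0.87, -0.68 and 0.45.

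The genes of the partner list were mostly near the all-gene median. Beside genes for proteins that these factors bind, the list holds other E2F and MYB genes and the kinase gene *Dyrk1a*. Of 13 genes in the list 12 had at least 10 counts, their median log2 fold change was -0.02, none was called higher and 2 were called lower with TMM (9.94% of all genes were) and 4 with total counts (26.6% of all genes). The genes called lower with TMM were *Rbl1* and *Mybl1*. *Rbl1*, which codes for the RB relative p107 and is a textbook E2F target, had 22 counts in KO and 108 in WT, a log2 fold change of -1.69 (-2.44 to -1.03). *Mybl1*, which codes for A-MYB, the relative of B-MYB, was counted 59 and 285 times, with a log2 fold change of -1.67 (-2.11 to -1.27). *Myb* had 0 counts in KO and 9 in WT, too few to be compared. With KO set to a floor of 3 counts it would be 1.99-fold lower. This is not a lower bound, since the upper end of its interval was a log2 fold change of -0.39. The other pocket protein genes were not lower with TMM. *Rb1* was counted 74 and 58 times, with a log2 fold change of 0.94 (0.43 to 1.47), the highest of the list, and *Rbl2*, which codes for p130, had 84 and 116 counts and 0.13. Exons of *Rb1* overlap *Lpar6* (461 and 565 counts) and *Rcbtb2* (154 and 347 counts) on the other strand, and those of *Rbl2* overlap *Aktip* (85 and 125 counts). Among the other E2F genes, *E2f5* had 32 and 76 counts (-0.65) and *E2f6* had 44 and 56 counts (0.24). The DP subunits *Tfdp1* and *Tfdp2*, with which E2F proteins pair to bind DNA, had log2 fold changes of 0.01 and -0.01. The MuvB subunits *Lin37*, *Lin52* and *Rbbp4* were at -0.09, -0.03 and -0.48, and *Dyrk1a*, whose kinase promotes assembly of the repressive DREAM complex, was at 0.15.

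Of the 18 genes for cyclins, CDKs, CDK inhibitors and other regulators of CDK activity (*Skp2*, *Cks1b*, *Fzr1*), 16 were compared, with a median log2 fold change of -0.15, none higher and 5 lower with TMM (9.94% of all genes were lower), and 7 lower with total counts (26.6% of all genes). The 5 include a cyclin gene and inhibitor genes. *Cdkn1a*, which codes for the CDK inhibitor p21, had 228 counts in KO and 1002 in WT (-1.54, -1.76 to -1.33). The inhibitor genes *Cdkn2d* (17 and 83 counts, -1.67) and *Cdkn1c* (9 and 35 counts, -1.33) were lower too. So were *Ccne2*, which codes for cyclin E2 (6 and 37 counts, -1.96), and *Cks1b*, a CDK subunit gene (21 and 127 counts, -1.98). *Ccnd1*, the cyclin gene that links growth signals to RB, was counted 529 and 1487 times, with a log2 fold change of -0.90 (-1.04 to -0.75), short of 2-fold with TMM and past it with total counts (-1.50). *Ccne1* was counted 34 and 46 times, with a log2 fold change of 0.15 (-0.53 to 0.83). Exons of *Ccnd1* overlap *LTO1* (54 and 140 counts) on the other strand over 23.36% of their bases. Those of *Ccne2* overlap *Ints8* (152 and 211 counts) over 17.42%.

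The targets of the factors had list medians below 0 while *Foxm1* was higher. Of 32 G2/M genes, textbook targets of FOXM1 and B-MYB, all were compared and 17 were called lower (9.94% of all genes were) and none higher, with 31 below 0 and a median of -1.04. With total counts 30 were lower (26.6% of all genes were) and the median was -1.63, against -0.60 for all genes. *Cdk1*, the mitotic kinase gene, had 106 counts in KO and 540 in WT, a log2 fold change of -1.75 (-2.07 to -1.45). *Ube2c*, which codes for the ubiquitin-conjugating enzyme of the anaphase-promoting complex, had 84 and 475 counts (-1.90, -2.26 to -1.57), and *Cdc20*, which codes for an activator of that complex, had 210 and 803 counts (-1.34). The spindle factor gene *Tpx2* and the topoisomerase gene *Top2a* happened to have the same counts, 104 and 374, and a log2 fold change of -1.25. *Plk1*, which codes for a mitotic kinase that phosphorylates FOXM1, had 102 and 323 counts (-1.07, -1.41 to -0.75). The cyclin genes *Ccnb1* and *Ccna2* had 25 and 93 counts (-1.29) and 179 and 481 counts (-0.83). *Mki67*, a marker of cycling cells, was counted 973 and 1989 times, with a log2 fold change of -0.44 (-0.55 to -0.33), smaller than the median of its list. *Prc1*, which codes for an organiser of the central spindle, was the exception to the direction, with 95 and 75 counts and 0.93 (0.48 to 1.39), short of 2-fold. Exons of *Prc1* overlap *Rccd1* (66 and 95 counts) on the other strand over 11.08% of their bases. Those of *Ccna2* overlap *Exosc9* (81 and 122 counts) over 12.49%.

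The 31 compared G1/S genes, targets of E2F, had a median log2 fold change of -0.62, with 28 below 0, 5 called lower and 1 called higher, beside 9.94% and 9.46% of all genes. With total counts 21 were lower (26.6% of all genes), none was higher and the median was -1.22. The genes called lower were *Rrm2*, a subunit of ribonucleotide reductase (72 and 302 counts, -1.47), the licensing factor gene *Cdt1* (26 and 114 counts, -1.53), the DNA polymerase alpha gene *Pola1* (15 and 54 counts, -1.23), *Uhrf1*, a partner of DNA methyltransferase (57 and 193 counts, -1.16), and *Gins2* of the replicative helicase (4 and 46 counts, -2.81). Exons of *Gins2* overlap *Gse1* on the other strand over 67.32% of their bases. *Orc1*, the gene of the list with too few counts, had 0 and 7. Among the genes of the partner, CDK, G1/S and G2/M lists, *Mcm10*, which codes for a replication initiation factor, was the only one called higher with TMM and so the one most like *Foxm1*. It had 417 counts in KO and 253 in WT, a log2 fold change of 1.31 (1.08 to 1.54), and with total counts 0.71, short of 2-fold. In counts per count of the G2/M list (3755 and 10575 in sum), *Foxm1* was 18.6 times as high in KO as in WT (11.1 to 33.0), and per count of the G1/S list (3058 and 6137) it was 13.2 times as high (7.88 to 23.5).

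**Figure D3:**
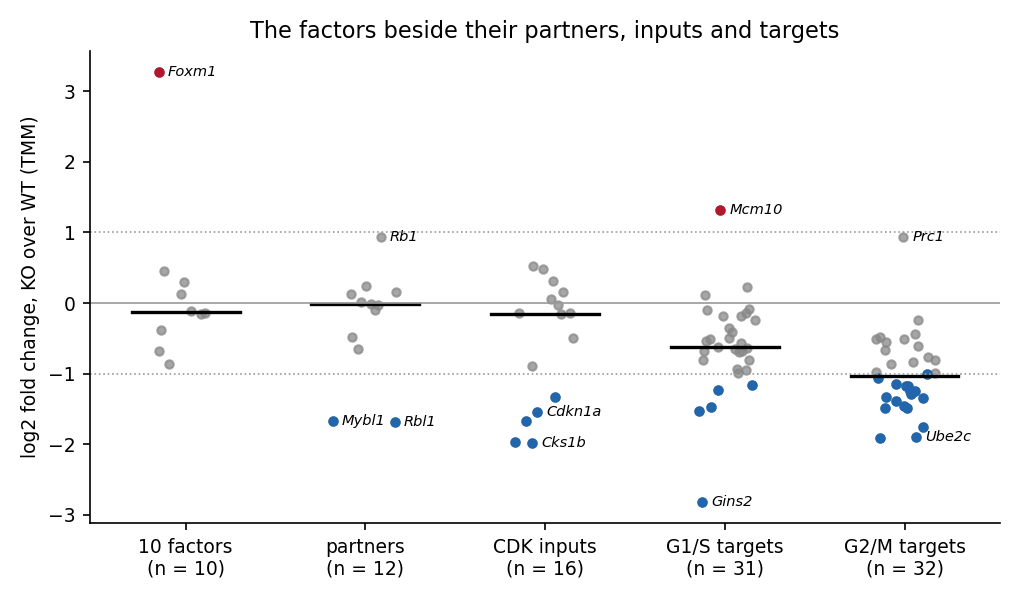
Log2 fold change (TMM, KO over WT library) of each compared gene of 5 lists, the 10 factors, their partners, the CDK inputs, the G1/S targets and the G2/M targets, with red for genes at least 2-fold higher, blue for genes at least 2-fold lower, grey for the rest, and black bars for the list medians. *Foxm1* stands at 3.27 above all other points, while the medians run from -0.02 for the partners to -1.04 for the G2/M targets.

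The promoters of the target lists differed in the same words. Of 27 windows of G2/M genes 19 held a CHR word (70.4%, against 17.9% of all windows), 24 a CCAAT box (88.9%), 1 an 8-base E2F word (3.7%) and 9 the 7-base E2F word (33.3%). Of 29 windows of G1/S genes 13 held an 8-base E2F word (44.8%, against 2.26%), 23 a CCAAT box (79.3%), 3 a CHR word (10.3%) and 8 the 7-base E2F word (27.6%). The 7-base word, in 11.3% of all windows, thus did not set the lists apart as the 8-base words did. The lists were written from textbook targets of factors that bind such words, so these shares are a description of the lists. The following stretches, in the same frame as those of the members, show both arrangements, an E2F promoter of a partner and of a G1/S gene and CHR promoters of 2 G2/M genes.
Rbl1 (chr2:157204535-157204654, minus strand): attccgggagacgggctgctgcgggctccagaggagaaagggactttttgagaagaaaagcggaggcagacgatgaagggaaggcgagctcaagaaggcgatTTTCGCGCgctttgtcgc
Mcm6 (chr1:128359706-128359825, minus strand): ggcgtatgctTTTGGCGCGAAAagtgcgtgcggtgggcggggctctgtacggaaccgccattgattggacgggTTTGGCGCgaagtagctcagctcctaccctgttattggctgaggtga
Cdk1 (chr10:69352913-69353032, minus strand): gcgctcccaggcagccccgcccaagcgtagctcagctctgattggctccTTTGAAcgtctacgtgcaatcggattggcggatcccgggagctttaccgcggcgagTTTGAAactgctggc
Ube2c (chr2:164769809-164769928, plus strand): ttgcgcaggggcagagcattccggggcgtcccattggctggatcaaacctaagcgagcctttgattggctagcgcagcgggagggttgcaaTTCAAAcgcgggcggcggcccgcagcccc
*Rbl1* has its E2F word 18 bases before the start, about as near as the words of *Mybl2* and *E2f3*. *Mcm6*, which codes for a subunit of the replicative helicase and had 126 and 365 counts (-0.94), is printed because it holds 3 such words, at 110, 106 and 47 bases. *Cdk1* and *Ube2c* have CHR words at 15 and 29 bases. *Cdk1* has another CHR word at 71 bases and, beyond the printed stretch, an 8-base E2F word at 131 bases. Its promoter thus holds both kinds of word, and it is the 1 G2/M window with an 8-base E2F word. The medians were close with and without a word. The 18 G2/M genes with a CHR word had a median log2 fold change of -1.04 (10 lower) and the 8 without one -0.99 (4 lower). Of all genes 9.94% were lower. The 12 G1/S genes with an 8-base E2F word had a median of -0.66 (3 lower, 0 higher). The 12 without one had -0.59 (1 lower, 1 higher), and 9.46% of all genes were higher.

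**Figure D4:**
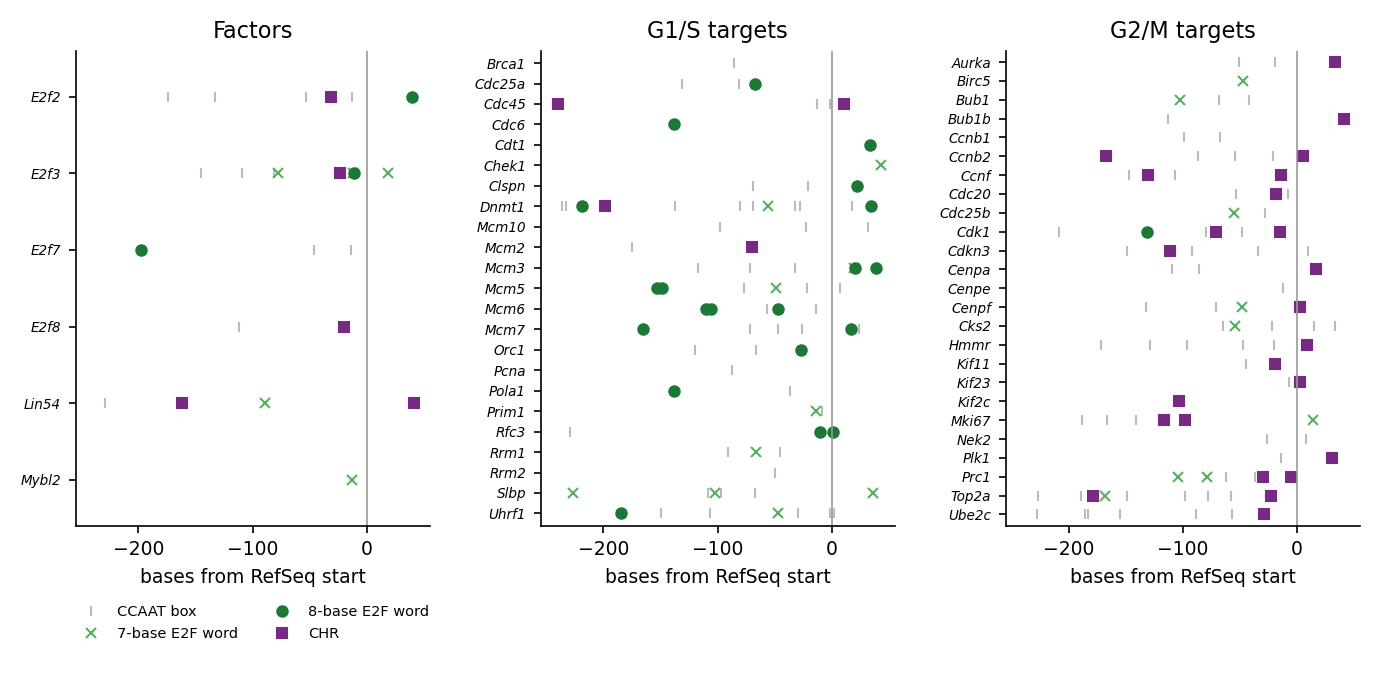
Position of each word in the promoter windows, in bases from the RefSeq start, for the genes of the factors, the G1/S targets and the G2/M targets with at least 1 match, 1 gene per row (windows of a gene are overlaid), with circles for 8-base E2F words, crosses for the 7-base E2F word, squares for CHR words and grey ticks for CCAAT boxes. Squares are common among the G2/M targets (19 of 27 windows) and circles among the G1/S targets (13 of 29), while among the factors both occur.

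Sites for the deleted microRNA were sought in the 3′ UTRs of the members. The mature strand (RefSeq, chr6:30165962-30165986, minus strand, GRCm38.p6) is shown with its seed, bases 2 to 8, in capitals.
miR-182-5p: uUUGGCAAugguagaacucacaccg
The site TTGCCAAA, which pairs with the seed and has an A opposite base 1, was in none of the 10 members, against 4.98% of 12503 compared genes with an annotated 3′ UTR. The shorter site TTGCCAA was in 1 of the 10, against 11.97% of those genes, and it was *E2f2*, at bases 2230 to 2236 of a 3′ UTR of 3020 bases.
E2f2 site: gctcacacctctttcTTGCCAAtgatactt
The capitals are the 7-base site. *Foxm1*, whose annotated 3′ UTR has 2180 bases, had neither site.

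With TMM the markers of other liver cells differed in both directions between the libraries. Their part in the differences of the 10 factors was not tested. Of 9 genes listed as lymphocyte markers 4 were compared, with *Ptprc* (41 and 15 counts, 2.00) and *Cd79a* (12 and 4 counts, 2.02) higher. *Ptprc* is not specific to lymphocytes among leukocytes, and it gave 41 of the 75 counts of the list in KO and 15 of 61 in WT. The T cell genes *Cd3e* (0 and 3 counts) and *Cd3g* (0 and 5 counts) were at 0 in KO, while *Cd8a* (7 and 8 counts) and *Cd4* (5 and 4 counts) were not, and the list summed to 6.97 CPM in KO and 3.76 CPM in WT. Of 5 cholangiocyte markers *Krt19* (26 and 7 counts, 2.39) and *Krt7* (15 and 6 counts, 1.81) were higher. *Sox9* (69 and 129 counts, -0.31), *Epcam* (11 and 15 counts, 0.14) and *Spp1* (0.40) were not past 2-fold. The list summed to 163.6 and 125.3 CPM, most of it *Spp1*. Macrophage markers summed to 103.7 and 139.6 CPM with 2 of 7 lower. Over all genes 9.94% were lower and 9.46% higher with TMM, and nothing is read from the counts in lists this short. Endothelial markers summed to 64.9 and 80.0 CPM with 1 of 6 lower, and stellate cell markers to 48.8 and 73.4 CPM with 1 of 6 lower. Neutrophil markers summed to 41.8 and 36.2 CPM with none of 3 compared past 2-fold. Erythroid markers summed to 74.6 and 61.5 CPM, of which *Alas2* gave 49.8 and 21.4 CPM. Of 4 compared, *Alas2* was higher (1.22) and *Hbb-bs* lower (-1.05). *Hba-a1* (-0.56) and *Klf1* (-0.14) were not past 2-fold, and *Gata1* was at 0 in both libraries. With total counts the cholangiocyte (132.8 and 154.4 CPM), neutrophil (33.9 and 44.6 CPM) and erythroid (60.5 and 75.8 CPM) sums were lower in KO instead. The lymphocyte sum stayed higher (5.66 and 4.63 CPM), and the macrophage, endothelial and stellate cell sums stayed lower.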

How the data were processed

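RNA-seq was performed by the authors on the liver of mice of both genotypes, with 1 library per genotype. Total RNA was extracted, and the paper states that mRNA with poly(A) was purified on poly-T beads. Samples were grouped by the genotype in the labels. Deposited values are read counts per gene, not normalized, and FPKM that the authors scaled by gene length and total count. HISAT2 2.0.4, StringTie and edgeR are named in the submitters' processing notes, whose build label is a human one, while the coordinates of the table are those of mouse GRCm38. Counts were scaled with TMM in edgeR 4.0.16 (R 4.3.3), and log2 fold changes used a prior count of 0.5, for genes whose counts in KO and WT summed to 10 or more. Depth was 13247497 and 13163348 counts, so that 1 count is 0.0930 CPM in KO and 0.0617 CPM in WT. With 1 library per genotype no test was run. Intervals were computed in scipy 1.17.1. Ratios of counts within a library have exact conditional intervals. The computation of fold changes and intervals was run on simulated Poisson counts with known changes, as a check of the code only. Those counts were built with neither variation between mice nor the difference in mitochondrial share. Alternatives were total counts with and without the mitochondrial chromosome, DESeq2 1.42.0 size factors, the upper quartile, the FPKM (pseudocount 0.1), a prior count of 5, minimums of 1 and 50 counts and a 1.5-fold threshold. The 10 members and all gene lists were chosen with earlier results of these data known. Named genes are the members, the partners, genes past 2-fold in the other lists (the 6 with most counts where more than 8 were), 5 fixed cyclin and proliferation genes, and genes that overlap members or flank *Foxm1*. *Rhno1*, *Nrip2* and overlaps were placed with GENCODE M21, which holds 34267 of the 34745 identifiers. *Mcm6*, *Prc1* and *Orc1* were named after their values were seen. Columns of gene annotation were not used.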

Additional observations from a re-analysis of the deposited data

How the results depend on the processing

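No paired analysis was possible because only 1 library per genotype exists in the data used here, and for the same reason no replicate could be left out. The higher level of *Foxm1* and its distance from the other 9 factors kept their direction under all alternatives. *Foxm1* ranged from 2.09 to 3.28 on the log2 scale, with 2.09 from the FPKM, where the pseudocount of 0.1 is large beside 0.142 FPKM in WT. Its distance from the median of the other 9 was 2.67 with the FPKM. With total counts the medians moved to -0.62 for the partners, -0.75 for the CDK inputs, -1.22 for the G1/S targets and -1.63 for the G2/M targets. With the FPKM they were -0.58 for the partners, -0.71 for the CDK inputs and -1.56 for the G2/M targets. Single factors other than *Foxm1* moved by more than their counting interval in 6 of 54 recomputed values, all of them *E2f1*, *E2f4* and *E2f8* under total counts or the FPKM. Genes higher in KO numbered 1283 with TMM, 624 with total counts, 405 with the FPKM, 2269 with a minimum of 1 count, 656 with 50 counts and 2534 at 1.5-fold. Genes lower numbered 1348 with TMM, 3605 with total counts, 2934 with the FPKM, 2763 with a minimum of 1 count, 730 with 50 counts and 2625 at 1.5-fold. The last 3 settings change how many genes are compared or the threshold itself. The cause of the shifts with total counts and the FPKM was not tested. Without the mitochondrial chromosome, total counts gave 6 of the 10 factors below 0, as TMM did. The spread between mice is unknown, and *E2f7*, *Mybl2* and *E2f2* in KO, and *Foxm1* and *E2f7* in WT, rest on fewer than 20 counts.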
